A study of Mus musculus with 6 samples.

Results

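The genes described here encode the subunits, activators, inhibitor and assembly chaperones of the proteasome. They were chosen by symbol, as all genes in the deposited feature lists that start with Psma, Psmb, Psmc, Psmd, Psme, Psmf or Psmg and are not pseudogenes. The rule found 50 genes in each pool, out of 27514 genes shared by the 3 pools. They are 8 alpha and 11 beta subunits of the core particle, 6 ATPases and 14 non-ATPase genes of the regulatory particle. The rest are 5 activator genes, 1 inhibitor, 4 assembly chaperones and Psmc3ip. Psmc3ip is a meiotic recombination factor whose symbol meets the rule although it is no proteasome subunit. Counts of proteasome genes below include it.

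The proteasome is the protease that degrades proteins tagged with ubiquitin. Its core particle is a barrel of alpha and beta subunits, in which the beta subunits Psmb5, Psmb6 and Psmb7 cut the chain, and its regulatory particle binds the ubiquitin chain, removes it and unfolds the substrate with a ring of ATPases. In cells exposed to interferon, Psmb8, Psmb9 and Psmb10 take the place of these catalytic subunits, and the Psme1 and Psme2 products form an activator that caps the core without ubiquitin recognition. Transcription of the whole set is raised by Nfe2l1 when proteasome activity is too low. Neurons depend on the proteasome for turnover at synapses and in the cell body.

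Nuclei of the mouse hypothalamus were sorted for NeuN, a neuronal nuclear protein, and captured with the 10x Genomics 3' v3 kit. There were 3 pools, from chow-fed mice, mice made obese by diet (DIO, labelled hfd) and chow-fed ob/ob mice (OB), which lack functional leptin. Each pool joined, under separate hashtags, a vehicle group and a group that had received rapamycin, which inhibits the mTORC1 kinase complex. Sources used here give no number of mice, strain, age, sex, dose or duration, so each treatment in a pool is 1 sample, and p-values below measure the spread between such sums.

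UMIs were summed over the neuronal nuclei of each pool and treatment, which held 1442 to 5721 nuclei and 5792377 to 33978673 UMIs. Levels are these UMIs scaled to the same total in every sum (CPM). The OB pool stood apart. Its median nucleus held 2805 UMIs, against 5826 in chow and 5572 in DIO, 30.4% of its barcodes had no hashtag call, and 18.3% (rapamycin) and 37.9% (vehicle) of its called nuclei were non-neuronal, against 4.36% to 5.37% in the other sums. Its matrix was also made with another Cell Ranger version (7.0.1 against 6.0.0) and lists 31053 genes against 27998. Neuronal markers summed to 16443 to 19077 CPM in the neuronal nuclei. Markers of microglia summed there to 128.5 CPM in chow rapamycin and 129.7 in chow vehicle. In the same order they were at 175.8 and 150.6 in DIO and at 198.3 and 165.4 in OB. Of these, C1qa and Tmem119 were at 0 in at least 1 sum. Oligodendrocyte markers were at 54.7 to 59.0 CPM in chow and DIO, against 93.5 and 96.9 in OB. Markers of pituitary and pars tuberalis were at 38.0 CPM in OB vehicle, against 17.4 to 20.9 elsewhere. Barcodes shared with another pool numbered 64 to 71 per pool.

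Proteasome transcripts were a nearly constant share of neuronal RNA. The 50 genes together made up 2155 CPM in chow rapamycin, 2236 in chow vehicle, 2019 in DIO rapamycin, 1916 in DIO vehicle, 2114 in OB rapamycin and 2032 in OB vehicle nuclei. Both chow sums lay above both DIO sums, and the highest was 1.17 times the lowest. In the non-neuronal nuclei the genes summed to 1836 to 2122 CPM. Of the 50 genes, 45 had a median above 1 CPM. The other 5 were Psma8, a testis alpha subunit, the thymus subunit Psmb11, the inducible Psmb8 and Psmb9, and Psme2b, a copy of Psme2 whose reads may not be told apart from it, with 3 to 61 UMIs over all 6 sums. In 35 of the 45 the highest of the 6 sums was under 1.5 times the lowest. The share of all genes with so small a spread is not given, so this count does not set the proteasome genes apart. In the same sums, 37 other genes of the ubiquitin and proteasome pathway together ranged from 4098 to 4639 CPM. Ribosomal protein genes ranged from 1443 to 2455 CPM.

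**Figure D1:**
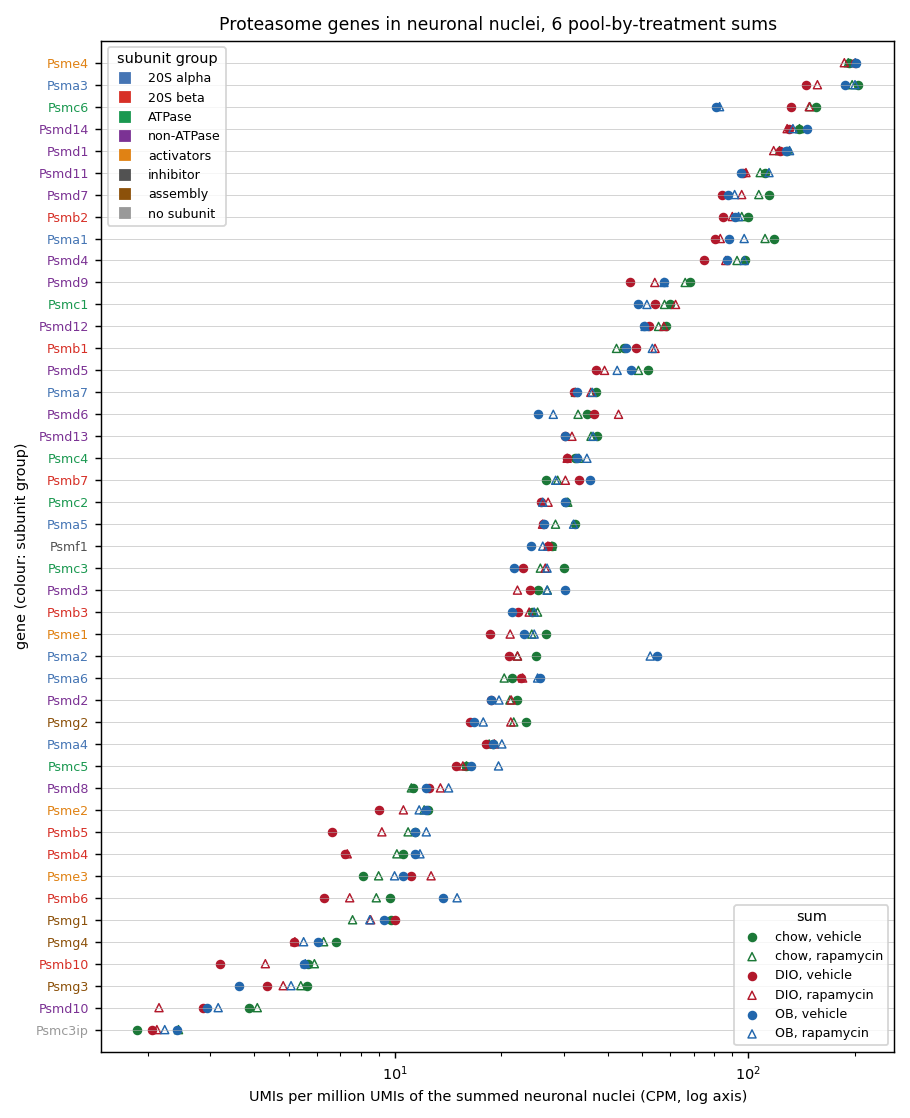
CPM (log axis) of the 45 proteasome genes with a median of at least 1 CPM in each of the 6 sums of neuronal nuclei. Colour gives the pool, filled circles vehicle and open triangles rapamycin. Rows are ordered by CPM, not by level per length. The 6 sums lie close together for most genes, with Psma2 at 52.8 and 55.2 CPM in the OB sums against 21.1 to 25.03 elsewhere, Psmc6 lower in the OB sums, and Psmb5, Psmb6 and Psmb10 lowest in DIO vehicle.

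Per kilobase of gene span, the levels were highest for Psmd7 (11.6 CPM per kb, median of 6 sums) and Psmd4 (9.08), a ubiquitin receptor, followed by Psma1 (8.03) and Psme1 (7.83). Of the constitutive catalytic subunits, Psmb6 had 3.65 and Psmb5 2.87 CPM per kb, and Psmb7, a gene of 55.9 kb, had 0.530. Without division by span, Psmb7 was the highest of them in every pool. In chow neurons, both treatments joined, it had 27.7 CPM, against 11.1 for Psmb5 and 9.26 for Psmb6. The scaffold genes Psmd1 and Psmd2 stood at 1.68 and 1.66 CPM per kb, and the deubiquitinase Psmd14 at 1.54. The steadiest gene was Psme4, which encodes a large activator of the core particle. It had 191.9, 192.6, 187.1, 201.1, 200.8 and 201.8 CPM in chow rapamycin, chow vehicle, DIO rapamycin, DIO vehicle, OB rapamycin and OB vehicle, a highest sum 1.08 times the lowest. The inhibitor Psmf1 ranged from 24.3 to 27.9 CPM.

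Promoter sequence was taken from RefSeq (GRCm38.p6, from 250 bases before to 50 bases after the gene start) for the 42 of the 50 genes that matched by symbol. Motifs were searched as exact letters on both strands. The ETS core CCGGAAG was present in 15 of the 42 promoters (35.7%) and in 9.93% of all 27025 promoters. The antioxidant element core TGANNNNGC was in 24 (57.1%, against 45.0% of all), the CCAAT box in 15 (35.7%, against 41.1%), a nuclear respiratory factor type motif (GCGC, any 2 bases, GCGC) in 7 (16.7%, against 1891 of all 27025), the interferon response motif (GAAA, any 2 bases, GAAA) in 5 (11.9%, against 3.99%) and CACGTG in 4 (9.52%, against 8.09%). The stricter antioxidant element TGANTCAGC, whose letters also hold the looser core, was found in Psmb5 alone (1.37% of all). The interferon motif was in Psmb3, Psmd4, Psmd9, Psme1 and Psmg4, and not in the windows of Psmb8, Psmb9, Psmb10 or Psme2. The stretches below belong to genes that the comparisons turn on, with the motif in capitals. They are the antioxidant element of Psmb5 (chr14:54617946-54617964, minus strand, motif 42 to 50 bases after the start), the interferon motif of Psme1, here read on the other strand (chr14:55578493-55578522, plus strand), and the ETS cores of Psmg1 (chr16:95991003-95991049, minus strand) and Psmc6 (chr14:45329704-45329750, plus strand).
Psmb5: ccgatgccggTGAATCAGC
Psme1: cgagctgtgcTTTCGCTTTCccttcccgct
Psmg1: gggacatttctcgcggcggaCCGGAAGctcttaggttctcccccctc
Psmc6: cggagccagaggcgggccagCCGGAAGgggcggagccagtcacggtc
Matches are descriptions of the letters in these windows and do not show that a factor binds there.

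The first comparison asked whether rapamycin moved the proteasome genes in neurons. Across the 3 pools, with the pool as a block, no proteasome gene passed (edgeR quasi-likelihood test, Benjamini-Hochberg adjusted p of at most 0.05). The fit takes the rapamycin effect as the same in all pools, so it cannot show an effect that differs between them. Of the 50, 47 could be tested, and among all 17816 genes tested 69 passed, 0.387% (0.101% higher and 0.286% lower with rapamycin). The smallest adjusted p was 0.731, for Psmg1, which encodes an assembly chaperone of the alpha ring. In chow, Psmg1 stood at 7.59 CPM under rapamycin against 9.75 under vehicle. The DIO levels were 8.54 against 10.03 and the OB levels 8.49 against 9.32, so rapamycin was below vehicle in 3 of 3 pools. Its fitted log2 difference was -0.27 ± 0.12 (SE), with an unadjusted p of 0.019 in the same edgeR fit, the only one under 0.05 among the 47 (5.67% of all genes). DESeq2 gave 0 calls as well, with 0 proteasome genes at an unadjusted p under 0.05.

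The estimates were small for nearly the whole set. In 46 of 47 genes the log2 difference lay within 0.25 of 0, the median was 0.04 (0.01 over all genes), and 31 were above 0. These counts have no share over all genes beside them, so they do not set the proteasome genes apart. For the catalytic subunits the estimates were 0.17 for Psmb5 (95% interval from the SE -0.05 to 0.38), 0.07 for Psmb6 (-0.16 to 0.29) and -0.08 for Psmb7 (-0.22 to 0.06). Among the inducible subunits it was 0.18 for Psmb10 (-0.11 to 0.47), while Psmb8 (-0.97 to 0.73) and Psmb9 (-0.99 to 0.97) were too rare to bound. Psmd14 had -0.04 (-0.15 to 0.07), Psmd1 -0.04 (-0.15 to 0.07), Psmd2 0.06 (-0.10 to 0.22), Psme1 0.04 (-0.12 to 0.19), Psme2 0.06 (-0.15 to 0.26), Psme3 0.12 (-0.09 to 0.33), Psme4 -0.05 (-0.16 to 0.07) and Psmf1 0.02 (-0.13 to 0.16). Psmc3ip, the match that is no subunit, had 0.16 (-0.26 to 0.58). Of the 37 ubiquitin and proteasome pathway genes that are no members, 0 passed with edgeR, 2 had an unadjusted p under 0.05 (Ubb, a polyubiquitin gene, and Uba6, a ubiquitin-activating enzyme), and DESeq2 gave 0. Nfe2l1 stood at 0.08 (-0.07 to 0.23).

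The same fit was made in nuclei with markers of 1 fast transmitter. In GABAergic nuclei 0 of 45 proteasome genes passed with edgeR (0 of 14993 genes, 0.0%), and in glutamatergic nuclei 0 of 44 (2 of 13891, 0.0144%, with 0.0072% in each direction). In each class 1 proteasome gene had an unadjusted p under 0.05, Psmb7 at -0.26 in GABAergic nuclei (4.32% of all genes) and the chaperone Psmg4 at -0.68 in glutamatergic nuclei (3.91%), and DESeq2 gave 0 calls in both. The difference of the rapamycin effect between the classes passed for 0 of 45 proteasome genes in edgeR (16 of 14489 genes, 0.11%, of which 0.0414% higher and 0.069% lower), with Psma2 alone at an unadjusted p under 0.05 (4.33% of all), and DESeq2 gave 0.

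Within the pools the small ratios leaned in different directions. These values have no test, since each is 1 sum against 1 sum, and the 95% intervals are exact and cover counting error only. A gene counts as measured where the pair of sums holds 50 or more UMIs, which 45 members did. In chow 34 of them were lower with rapamycin (60.3% of all measured genes were lower and 39.7% higher), in DIO 36 were higher (59.4% of all higher, 40.6% lower) and in OB 32 were higher (58.6% higher, 41.4% lower). With TMM scaling the DIO count was 31 and the OB count 27. The median log2 ratio was -0.06 in chow, 0.09 in DIO and 0.08 in OB, against -0.03, 0.04 and 0.04 over all genes. In 29 of 45 genes the ratio was below 0 in chow and above 0 in DIO, a pattern seen in 39.2% of all genes. The interval lay below 0 in chow and above 0 in DIO for 5 of 45 genes (3.2% of all), and below 0 in chow and above 0 in OB for 2 (1.32%).

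In chow all 7 measured alpha subunits were lower with rapamycin, 5 of them with an interval below 0. Such an interval was found for 10 of the 45 genes (9.57% of all genes) and an interval above 0 for none (5.73%). The 5 lowest ratios were those of Psmg1 (-0.36, -0.61 to -0.11), the ATPase Psmc3 (-0.23, -0.36 to -0.09) and the alpha subunits Psma7 (-0.19, -0.31 to -0.07), Psma5 (-0.18, -0.32 to -0.05) and Psma2 (-0.17, -0.32 to -0.02). The 5 highest were Psmc3ip (0.39), Psme3 (0.15), Psmb7 (0.11), Psmd3 (0.09) and Psmd10 (0.08), a chaperone of the ATPase ring, all with intervals that hold 0. The Psmg assembly chaperones were lower in 4 of 4 and the pathway genes in 28 of 37.

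In DIO the largest ratio was that of Psmb5, the subunit with chymotrypsin-like activity. Its level was 9.18 CPM under rapamycin against 6.62 under vehicle, which gives 0.47 on the log2 scale (0.21 to 0.74). Psmb10 stood at 0.42 (0.04 to 0.81), the assembly chaperone Psmg2 at 0.39 (0.22 to 0.56), Psmb6 at 0.24 (-0.04 to 0.52) and Psmd9, another base chaperone, at 0.24 (0.13 to 0.34). The lowest were Psmd10 (-0.42, -0.89 to 0.05), Psmg1 (-0.23, -0.47 to 0.01), Psmb7 (-0.13, with an upper bound just under 0), Psmd3 (-0.12, -0.27 to 0.03) and Psme4 (-0.10, -0.16 to -0.05). Intervals above 0 were found for 17 of the 45 genes (19.5% of all) and below 0 for 2 (12.1%). The 6 ATPases were higher in 6 of 6. Ribosomal protein genes were higher in 75 of 81 (median 0.20), oxidative phosphorylation genes in 68 of 70 (0.18), chaperones in 34 of 36 (0.11) and pathway genes in 25 of 37, with Nfe2l1 at 0.26 (0.12 to 0.40) and Ubb at 0.40 (0.30 to 0.51). Mitochondrially encoded genes were lower in 9 of 10 (median -0.32, with 4 intervals below 0 and 0 above), and summed to 59.8 CPM with rapamycin and 73.9 with vehicle. The median neuronal nucleus held 5384 UMIs with rapamycin and 6135 with vehicle in this pool, and the part of depth in these ratios was not tested beyond thinning, which gave a median of 0.12.

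In OB, where counts were lowest, 6 of 45 intervals lay above 0 (10.5% of all genes) and 2 below 0 (5.44%). The 5 highest ratios were Psmg3 (0.49, -0.22 to 1.25), Psmc3 (0.31, 0.02 to 0.61), Psma5 (0.28, 0.02 to 0.55), the non-ATPase subunit Psmd11 (0.27, 0.12 to 0.42) and Psmd13 (0.27, 0.02 to 0.52). The 5 lowest were Psmb7 (-0.32, -0.56 to -0.08), Psmc2 (-0.21, -0.46 to 0.06), Psmd3 (-0.17, -0.42 to 0.10), Psmg1 (-0.14, -0.60 to 0.35) and Psmg4 (-0.13, -0.71 to 0.48). Across all 3 pools, Psmb3, Psmb10, Psmc4 and Psmc5 were higher with rapamycin (4 of 45, against 12.7% of all genes), and Psme4 and Psmg1 were lower (2 of 45, against 10.5%). For Psmd14 the OB ratio was -0.13, with values near 0 elsewhere (0.00 in chow, -0.01 in DIO).

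**Figure D2:**
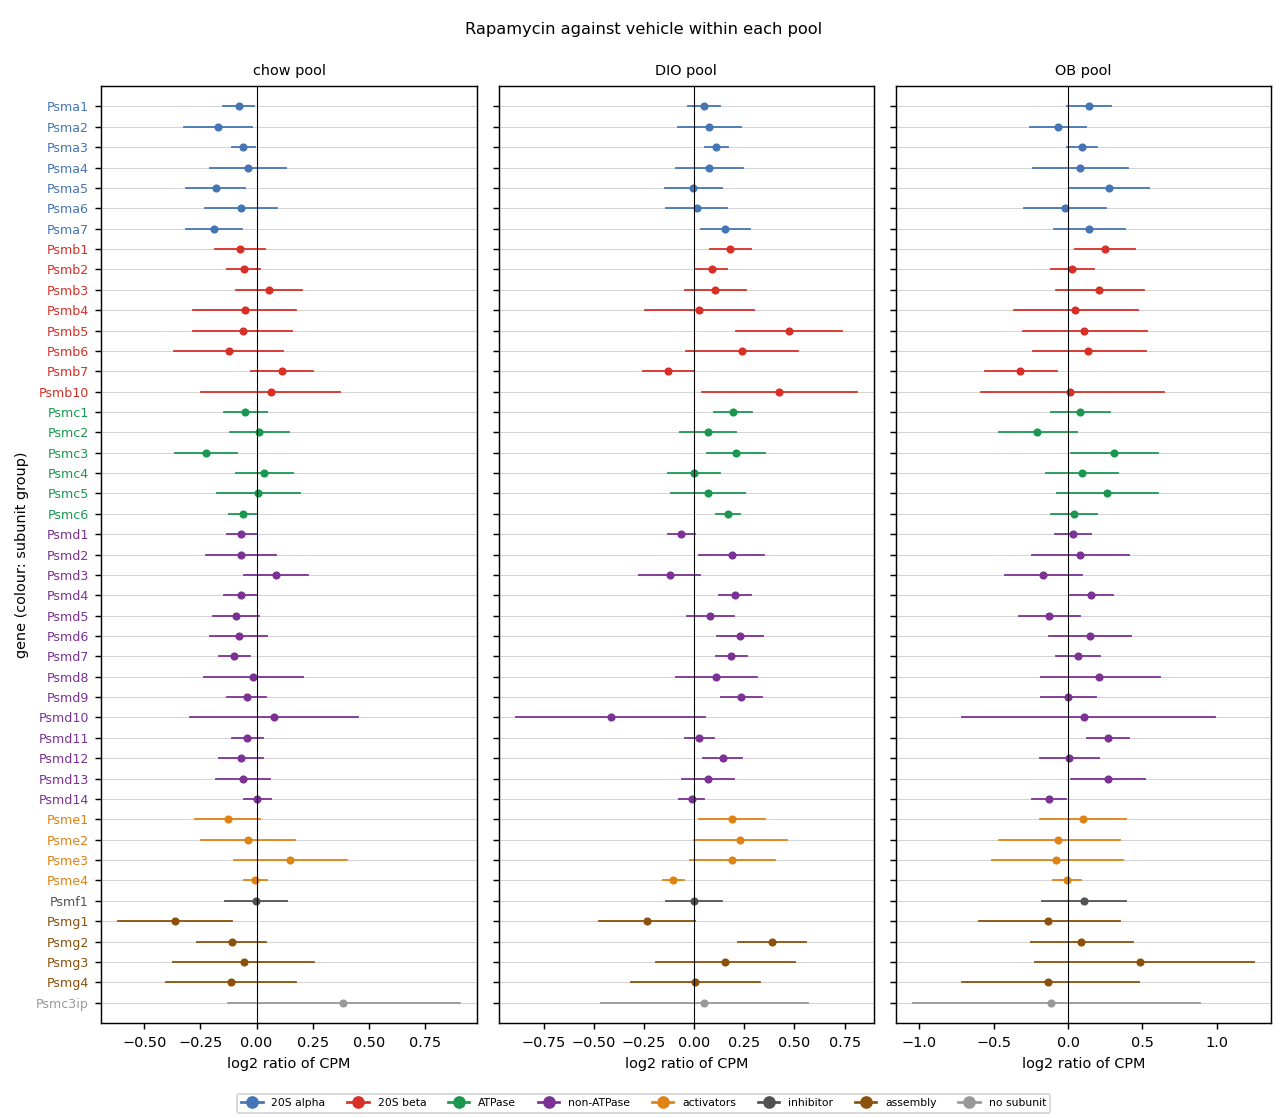
Log2 ratio of CPM, rapamycin over vehicle, in neuronal nuclei of the chow, DIO and OB pools (panels, each with its own axis range) for the 45 measured genes. Points are ratios and lines exact 95% intervals for counting error, coloured by subunit group. Most points lie left of 0 in chow (34 of 45) and right of 0 in DIO (36 of 45) and OB (32 of 45), by small amounts.

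The next comparison set vehicle neurons of the obese pools against chow. In DIO 36 of 45 genes were lower (54.2% of all measured genes were lower and 45.8% higher), 29 with an interval below 0 (32.6% of all) and 3 with one above (25.4%). The median log2 ratio was -0.24 (order-statistic interval over genes -0.38 to -0.10), against -0.04 over all genes. The DIO vehicle sum is also the base of the rapamycin ratios in DIO, so the values of both comparisons share it. Both DIO sums, rapamycin and vehicle, lay below both chow sums in 29 of 46 genes (34.8% of all genes did) and above both in 7 (33.8%).

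The lowest DIO ratio was that of Psmb10. It had 3.21 CPM in DIO vehicle and 5.67 in chow vehicle, a log2 ratio of -0.82 (-1.20 to -0.45). For Psmb5 the levels were 6.62 and 11.4 CPM, a ratio of -0.78 (-1.04 to -0.52). The other 3 of the 5 lowest were Psmb6 (-0.61, -0.88 to -0.34), Psmd9 (-0.57, -0.66 to -0.47) and Psma1 (-0.55, -0.62 to -0.47). With rapamycin, DIO nuclei had 9.18 CPM of Psmb5 and chow nuclei 10.9, so the pools did not overlap, and Psmb10 (4.30 against 5.92) and Psmb6 (7.45 against 8.86) kept that order. Psmb7, the third constitutive catalytic subunit, went the other way, with 33.2 against 26.7 CPM in vehicle (0.32, 0.18 to 0.45).

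The activators differed in direction. Psme1 (-0.52, -0.68 to -0.36) and Psme2 (-0.46, -0.69 to -0.23), which form 1 complex, were lower in DIO, while Psme3, the gene of the related nuclear activator, was the highest of all 45 genes (0.45, 0.21 to 0.69). Psme4 was at 0.06 (0.01 to 0.11), and below 0 with nuclei thinned to 2000 UMIs. The next highest after Psme3 and Psmb7 were Psmd8 (0.15), Psmc3ip (0.13) and Psmb1 (0.11), with intervals that hold 0. In the regulatory particle, Psmd14 stood at -0.10 (-0.16 to -0.04), Psmd1 at -0.06 with an interval that holds 0 and Psmd2 at -0.24 (-0.41 to -0.08), and Psmf1 was at -0.04 (-0.18 to 0.10). The ATPases were lower in 6 of 6 (median -0.19) and the Psmg assembly chaperones in 3 of 4.

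Ribosomal protein genes were lower in DIO in 80 of 81 (median -0.52), oxidative phosphorylation genes in 64 of 70 (-0.45), chaperones in 25 of 35 (-0.15) and pathway genes in 28 of 37 (-0.14). Mitochondrially encoded genes were higher in 7 of 11 (median 0.19, with 4 intervals above 0 and 0 below). Among the pathway genes, the polyubiquitin gene Ubb was low (-0.80), while Nfe2l1 was at 0.09 (-0.06 to 0.24). Median UMIs per neuronal nucleus were 6135 in DIO vehicle and 5875 in chow vehicle. Pool and diet cannot be told apart, since each diet is 1 pool. Non-neuronal nuclei of the same pools, with both treatments joined, gave a ratio of 1.11 for Psmb5 (0.03 to 2.28, from 25 and 11 UMIs). Psma1 was at -0.65 there (-1.13 to -0.17) and Psmd9 at 0.12 (-0.37 to 0.61). Psmb6 (-0.52, -1.79 to 0.70) and Psmb10 (-0.08, -1.98 to 1.83) had wide intervals.

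In OB against chow vehicle neurons, 29 of 45 genes were lower (55.4% of all lower and 44.6% higher), with a median of -0.12 against -0.04. Intervals lay below 0 for 14 (21.0% of all) and above for 5 (16.8%). Both OB sums were below both chow sums in 17 of 46 genes (31.5% of all) and above them in 12 (31.2%). Psma2 was at 55.2 CPM in OB and 25.03 in chow vehicle (1.14, 0.95 to 1.33), and the rapamycin sums were at 52.8 and 22.2. The ATPase Psmc6 was at 80.8 against 156.0 CPM (-0.95, -1.09 to -0.81), and at 83.0 against 149.4 with rapamycin. Both genes had the same direction in non-neuronal nuclei of the same pools, there with both treatments joined. The ratios were 1.36 (0.79 to 1.97) for Psma2 and -0.77 (-1.04 to -0.50) for Psmc6.

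The other high ratios in OB were Psmb6 (0.50, 0.12 to 0.86), Psmb7 (0.41, 0.19 to 0.64), Psme3 (0.38, -0.05 to 0.79) and Psmc3ip (0.37, -0.58 to 1.23). The other low ones were Psmg3 (-0.64, -1.36 to 0.02), Psmg2 (-0.48, -0.80 to -0.18), Psmc3 (-0.47, -0.75 to -0.20) and Psmd6 (-0.46, -0.72 to -0.21). Psmb5 (levels of 11.4 CPM in both) and Psmb10 (-0.04, -0.63 to 0.51) showed no difference beyond counting error, nor did Psme1 (-0.21, -0.48 to 0.06) and Psme2 (-0.02, -0.40 to 0.35). Ribosomal protein genes were higher in OB in 61 of 81 (median 0.17) and oxidative phosphorylation genes in 41 of 70 (0.09), while chaperones were lower in 27 of 35 (-0.29) and pathway genes in 28 of 37 (-0.14). Mitochondrially encoded genes were higher in 9 of 9 and summed to 196.5 CPM in OB vehicle and 67.8 in chow vehicle neurons. Pool, genotype, depth, Cell Ranger version and the gene list of the matrix cannot be told apart in this comparison.

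**Figure D3:**
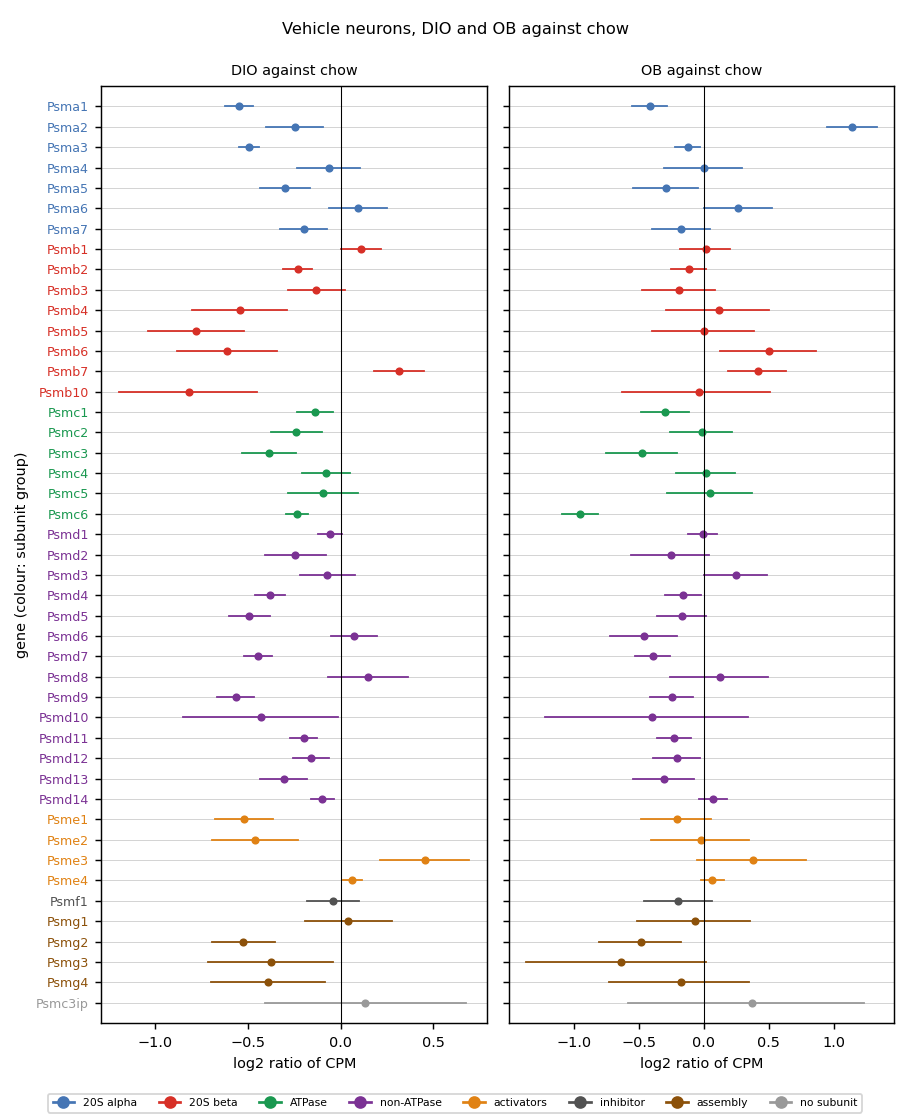
Log2 ratio of CPM in vehicle neurons, DIO over chow and OB over chow (panels, each with its own axis range), with exact 95% intervals for counting error and colour by subunit group. In DIO most genes lie left of 0, with Psmb10 (-0.82) and Psmb5 (-0.78) farthest, while Psma2 (1.14) and Psmc6 (-0.95) stand out in OB.

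Of the inducible subunits, Psmb8 and Psmb9 were near the detection limit. Psmb8 had 5 and 6 UMIs in the chow vehicle and rapamycin sums, 21 and 17 in DIO and 2 and 10 in OB. Both treatments together, this was 38 UMIs in DIO against 11 in chow, a log2 ratio of 1.75 (0.75 to 2.86), and 12 against 11 in OB, a ratio of 1.61 (0.31 to 2.94) after scaling to the smaller OB total. Psmb9 had 22 UMIs in DIO and 9 in chow (1.25, 0.07 to 2.55) and 8 in OB (1.32, -0.26 to 2.86). Psmb10, with more counts, went the other way in DIO. It had 240 UMIs in DIO against 356 in chow (-0.61, -0.85 to -0.37) and 122 in OB (-0.06, -0.37 to 0.24). Microglia markers in the neuronal sums were also higher in DIO and OB than in chow. Their part in the Psmb8 and Psmb9 ratios was not tested. The shares of nuclei that follow include hashtag doublets and nuclei without a hashtag call. A UMI of Psmb8 was seen in 39 of 10675 DIO neurons, 0.365% (Clopper-Pearson 95% interval 0.260% to 0.499%), at a median of 5764 UMIs per nucleus. In DIO astrocyte-like nuclei it was 1 of 284 (0.352%, 0.00891% to 1.95%) at 2125 UMIs, so the neuronal share cannot be told apart from background here. Thinned to 2000 UMIs per nucleus, 17 of 10592 DIO, 1 of 10189 chow and 13 of 7604 OB neurons held one, as did 0 of 164 DIO astrocyte-like nuclei. Microglia-like nuclei, the cells in which these genes are best known, numbered only 20 to 36 per pool and held at most 2 UMIs of Psmb8, Psmb9 or Psmb10. In OB, 2 of 36 held Psmb8 (5.56%, 0.680% to 18.7%), at a median of 878.5 UMIs per nucleus. Among OB neurons it was 20 of 9028 (0.222%, 0.135% to 0.342%), at 3240 UMIs. Psmb9 was seen in 5.56% of OB microglia-like nuclei and 0.122% of OB neurons. Each of these 2 genes was seen in 1 of 20 microglia-like nuclei in chow and 0 of 25 in DIO. Psmb8 had 0 UMIs in the chow non-neuronal nuclei with a hashtag call.

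The last comparison asked whether the 2 fast transmitter classes differ. Nuclei with at least 2 UMIs of vesicular GABA transporter or glutamate decarboxylase genes and none of the vesicular glutamate transporters, or the reverse, gave 203 to 1299 GABAergic and 95 to 598 glutamatergic nuclei per sum. Glutamatergic nuclei were the deeper class in every sum. Their median was 4598 UMIs against 3641 in OB rapamycin, the lowest pair, and 7968 against 6668 in DIO vehicle, the highest. The part of depth in the class differences was not tested beyond thinning. Of 45 proteasome genes tested, 1 passed, Psme1, which was lower in glutamatergic nuclei (edgeR, sample as block). Among all 14489 genes, 7.64% passed in that direction, 9.38% in the other and 17.0% in either. At an unadjusted p under 0.05 there were 5 proteasome genes (26.7% of all genes), with Psmc3ip, Psmd1, Psmd14 and Psme4 beside Psme1.

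Psme1 (chr14:55578494-55581527, GRCm38.p6) had 20.2 CPM in glutamatergic and 24.9 in GABAergic nuclei of chow rapamycin, 20.8 and 26.4 in chow vehicle, and 15.5 and 23.7 in DIO rapamycin. In DIO vehicle it had 12.8 and 19.7, in OB rapamycin 21.6 and 22.7, and in OB vehicle 15.98 and 21.3, the last from 8 and 20 UMIs. It was lower in glutamatergic nuclei in 6 of 6 sums, and the 2 ranges overlapped. The means were 17.8 ± 3.53 and 23.1 ± 2.42 CPM (SD, n = 6 sums), and the edgeR log2 difference was -0.39 ± 0.095 (SE), with an adjusted p of 0.0031. Over 12 alternative settings the adjusted p of this test lay between 0.00019 and 0.306 and passed in 8. It missed the threshold without the DIO pool (0.224), without the sample block (0.153), with nuclei thinned to 2000 UMIs (0.306) and with 3 or more marker UMIs (0.0786).

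Besides Psme1, Psma7, Psmc1, Psmd6, Psmd12, Psme4 and Psmc3ip were lower in glutamatergic nuclei in all 6 sums, 7 of 45 genes in total (12.2% of all), and 0 were higher in all 6 (6.43%). None of these 6 passed. The largest of their estimates was -0.80 ± 0.33 (SE) for Psmc3ip, with an edgeR adjusted p of 0.107 and 1 to 24 UMIs per sum and class. Psme4 stood at -0.09 and Psmd1 at -0.10. Psmd14 was at 0.10, with an edgeR adjusted p of 0.147. In 43 of 45 genes the difference lay within 0.25 of 0, and the alpha subunits were below 0 in 7 of 7 (median -0.07). Shares over all genes are not given for these counts. Of the 37 pathway genes 5 passed in edgeR, the proteasome-associated Txnl1 (0.21) and Zfand5 (0.15) higher and Fbxo7 (-0.35), Ubqln4 (-0.20) and Uba6 (-0.15) lower in glutamatergic nuclei. DESeq2 called 1 of the 37, higher.

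**Figure D4:**
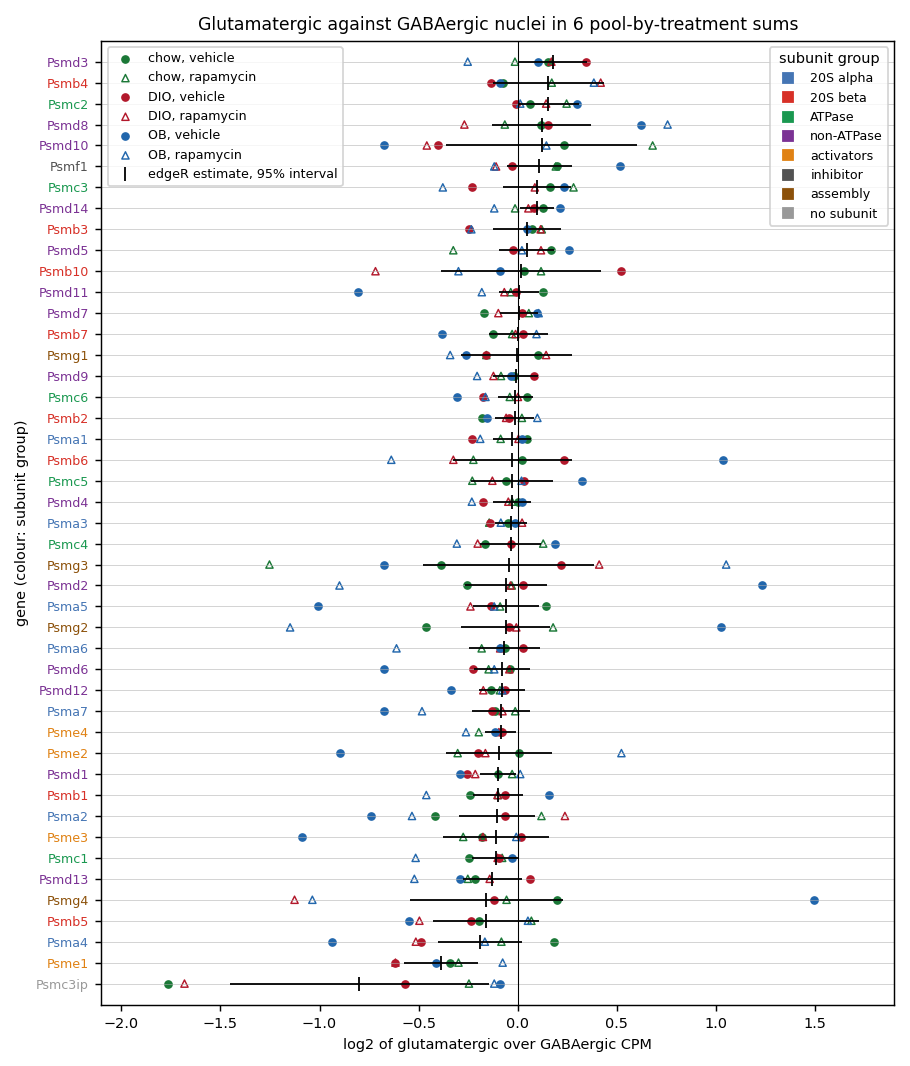
Log2 of glutamatergic over GABAergic CPM for the 45 tested genes, 1 point per pool-by-treatment sum (colour gives the pool, filled circles vehicle, open triangles rapamycin), with the edgeR estimate (bar) and its 95% interval (line). For Psme1 the points of all 6 sums lie left of 0, around an estimate of -0.39. Points of the OB sums scatter most.

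Levels by neuron type were read from 38 clusters, made without the 50 genes, of which 28 were neuronal and 25 had enough nuclei in at least 4 sums. Clusters are described with no test. The summed proteasome genes had medians from 1839 to 2373 CPM, a 1.29-fold range. They were highest in cluster 17, Agrp-like neurons of the arcuate nucleus (2373), cluster 21, paraventricular-like neurons with Avp and Oxt (2332), cluster 14 (2320, led by Vgll3 and Ppp1r17), and cluster 12 (2295, led by Tbx3os1, Rxfp1 and Nr5a2). In each of these 4 clusters the level was above that of all neurons in 6 of 6 sums. The lowest were supramammillary-like cluster 16 (1839), with Lmx1a, below all neurons in the 5 sums that held enough of its nuclei, and cluster 2 (1876), with Nr5a1, below them in 6 of 6. Across the 25 clusters the summed proteasome level ran with that of chaperones (Pearson 0.88, Spearman 0.93) and ribosomal proteins (0.76 and 0.71) but not with oxidative phosphorylation genes (0.04 and 0.05), and against median UMIs per nucleus (-0.41 and -0.46). These coefficients describe clusters that share libraries and denominators.

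Psme1 had its highest median in cluster 12, at 37.4 CPM (25.1 to 53.9 over 6 sums), and its lowest in cluster 3, at 11.3 (10.0 to 19.4), a 3.30-fold range without overlap. Cluster 3 is led by Myo5b, Cpne9 and Rprm, and 54% of its nuclei held a UMI of Slc17a6, a vesicular glutamate transporter. Psme2, the neighbour of Psme1 on chromosome 14 (start 55587440) and its partner in the activator, was also highest in cluster 12, at 20.8 CPM (15.7 to 26.4), and lowest in cluster 18, at 6.63 (0.00 to 13.4). Agrp-like neurons were also near the top, with 34.1 CPM of Psme1 (23.0 to 44.3) and 18.1 of Psme2 (15.3 to 36.9). Psmd9 ranged from 38.3 CPM in cluster 3 to 80.2 in cluster 14, a 2.09-fold range. At the other end, Psmd14 went from 115.0 CPM in histaminergic-like neurons to 155.1 in cluster 12, and Psme4 from 152.5 in cluster 15 to 229.9 in paraventricular-like neurons. Extremes among 25 clusters were picked by their values, so a gap between them is no test.

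**Figure D5:**
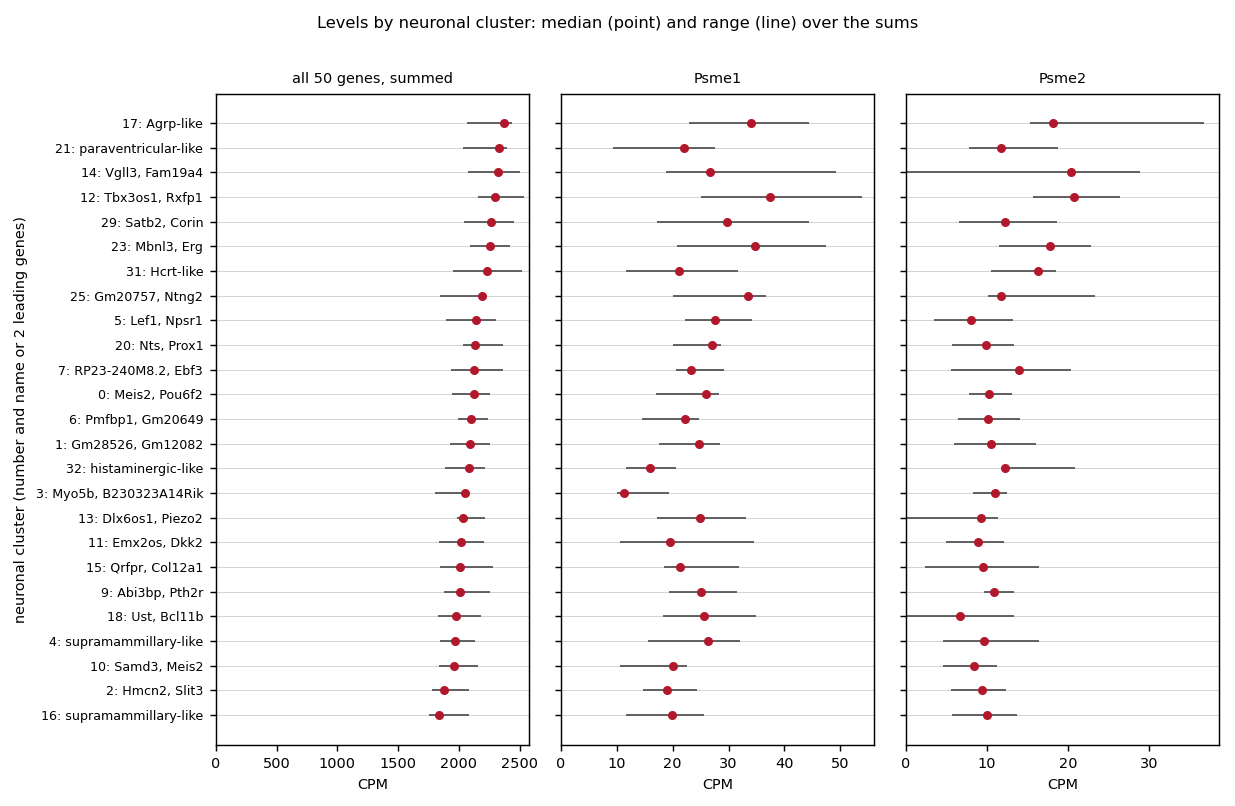
CPM of the summed proteasome genes, of Psme1 and of Psme2 in 25 neuronal clusters (rows, ordered by the sum). Points are medians and lines the range over 4 to 6 pool-by-treatment sums. The summed level spans 1839 to 2373 CPM, while Psme1 spans 11.3 to 37.4 CPM and is highest in cluster 12.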

How the data were processed

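The deposited matrices hold whole-number counts of UMIs and of hashtag reads for every barcode, made with Cell Ranger 6.0.0 (chow, DIO) and 7.0.1 (OB) per the file headers, on mm10 per the submitters' processing notes. Barcodes with at least 500 UMIs, 300 genes and under 5% mitochondrial UMIs were kept. Hashtags were called with HTODemux (Seurat 5.3.0, quantile 0.99), which found 450 to 622 doublets per pool. These doublets and barcodes without a call were left out of the sums. They were kept in the clustering and in the shares of nuclei that held a UMI of a gene. Doublets within a hashtag cannot be seen. Clusters came from scanpy 1.11.5 and leidenalg 0.10.2 on 3000 variable genes without the proteasome genes. A cluster was called X-like on 3 or more fixed markers. Cluster 12 met that rule for Pomc neurons through Cartpt, Tbx3 and Nr5a2, not Pomc, and is called by its leading genes. Sums were tested with edgeR 4.0.16 (TMM, filterByExpr), with DESeq2 1.42.0 as an alternative, and the fits were tested on simulated data. Ratios of 2 sums carry exact intervals.

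Named throughout are the catalytic and inducible subunits, Psmd14, Psmd1, Psmd2, the activators, Psmf1 and Psmc3ip, with genes past a test or, without one, the 5 highest and 5 lowest ratios among genes with at least 50 UMIs. Members and lists were chosen with earlier results of these data known, and further examples after their values were seen. UMIs of Psme2 and its copy Psme2b may be split between them. A result for 1 pathway gene is not reported here.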

Additional observations from a re-analysis of the deposited data

Results flagged for a closer look

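For 6 proteasome genes the exact 95% interval of the rapamycin ratio lay below 0 in chow and above 0 in another pool. Among all measured genes 3.2% showed this for DIO and 1.32% for OB. The difference between the pools was not tested in any of them. The log2 ratios were 0.11 in DIO and -0.06 in chow for Psma3, 0.16 and -0.19 for Psma7, 0.21 and -0.23 for Psmc3, 0.17 and -0.06 for Psmc6, and 0.19 and -0.10 for Psmd7. Against OB, they were 0.28 in OB and -0.18 in chow for Psma5, and 0.31 and -0.23 for Psmc3, the one gene with this pattern in both obese pools. The intervals cover counting error only, and the genes were picked among 45 for this pattern.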

How the results depend on the processing

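With edgeR or DESeq2, the count of proteasome genes past the rapamycin test across pools was 0 under all alternatives run. The median estimate was 0.08 without the chow pool and -0.01 without the DIO pool. The count for glutamatergic against GABAergic nuclei, 1 as reported, was 0 with 3 or more marker UMIs, 0 with nuclei thinned to 2000 UMIs, 0 without the sample block, and 0 to 2 over the fits that left out 1 pool each (0 without DIO, 2 without chow, where Psma4 joined). The cause was not tested. The Psme1 estimate was -0.26 without the DIO pool and -0.33 after thinning. With TMM scaling the chow rapamycin median was -0.0316 in place of -0.06. For Psme4, DIO against chow, vehicle neurons, the ratio turned from 0.06 to -0.0468 after thinning, and for Psmd3, OB against chow, vehicle neurons, from 0.25 to -0.000127 with hashtags called by tag ratio, which assigned 3826 OB vehicle neurons in place of 1442. Dropping neuronal clusters led by glial, vascular or pituitary markers was not run, since 0 clusters met that rule. The pool was a block in the rapamycin fit and the sample in the class fit. These blocks pair the sums within a pool or sample. No pairing by animal was possible because, as far as replicate numbers go, every group holds replicate 1 alone. Depth limits Psmb8, Psmb9, Psma8, Psmb11 and Psme2b in every sum, and all genes in OB vehicle.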
